A study of Mus musculus with 8 samples.

Results

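The 37 genes of the mouse mitochondrial genome were examined in RNA sequencing of macrophages from pancreatic islets. They comprise 13 protein genes, 2 ribosomal RNA genes and 22 transfer RNA genes, and were taken by their Ensembl identifiers on chromosome M of the GRCm38 assembly. All 37 were among the 48440 genes of the count table, although a symbol was missing there for 24 of them. The cells were double-positive for CD11b and F4/80 and came from wild-type male C57BL/6J mice aged 16 weeks. The animals ate chow (8% fat, 21% protein, 71% carbohydrate, 10.88 kJ/g) or, for 8 weeks from 8 weeks of age, a high-fat diet (HFD; 45% fat, 20% protein, 35% carbohydrate, 19.67 kJ/g). Each diet had 4 libraries, numbered 1 to 4 for chow and 5 to 8 for HFD, and each library pooled the islets of 2 mice. The comparison asked whether transcripts of the mitochondrial genome differed between macrophages of the 2 diets.

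Mitochondrial DNA is a small circle that is copied many times over in each cell. Both of its strands are transcribed into long precursors, and transfer RNAs that lie between most of the other genes mark where these are cut. The protein genes encode core subunits of respiratory complexes I, III and IV and of ATP synthase, while all other subunits, and every enzyme of mitochondrial transcription, RNA processing and translation, are made from nuclear genes. Pieces of mitochondrial DNA have also been copied into the nuclear chromosomes during evolution, and a sequencing read from such a piece can match both places.

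Library totals ranged from 4288665 to 6391247 counts, and levels are given in CPM, counts scaled to library depth. In a single library, a count of 0 left room for 0.464 to 0.702 CPM at most, for counting error only. Markers of the labelled cell type were abundant. The F4/80 gene Adgre1 averaged 501.5 ± 77.7 CPM over the chow libraries and 415 ± 73.5 CPM over the HFD libraries (SD, n = 4), and the CD11b gene Itgam averaged 310 ± 70.7 and 334 ± 97.5 CPM. All 8 neutrophil markers and 4 of 5 erythroid markers were at 0 in every library. The 7 B cell markers, of which 3 were at 0 throughout, summed to 249 to 452 CPM in chow and 211.5 to 312 CPM in HFD. The 10 T and NK cell markers, of which 5 were at 0 throughout, summed to 42.8 to 78.1 and 43.7 to 66.2 CPM, and the 10 dendritic cell markers, of which 1 was at 0 throughout, to 276 to 329 and 162 to 289 CPM. Summed hormone and other endocrine markers were at 1270 to 2373 CPM in chow and 1430 to 2624 CPM in HFD. Acinar markers were at 0.223 to 3820 CPM in chow and 40.4 to 1947 CPM in HFD. In these sorted bulk samples, fewer cells of a type and less RNA per cell cannot be told apart.

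Only 9 of the 37 genes were counted at a level that could be compared. These were both ribosomal RNAs and 7 protein genes, and all 9 passed the low-count filter, with at least 893 counts in each library. The other 6 protein genes, mt-Co2, mt-Atp8, mt-Atp6, mt-Co3, mt-Nd3 and mt-Nd4l, held 20 counts between them over all 8 libraries, 1 to 4 in each library. They lie side by side and fill the stretch chrM:7013-10173 together with 3 transfer RNA genes. The counted genes lie on either side of it. The 6 genes are 204 to 784 bases long. Of the 9 counted genes, 8 are longer than that, at 955 to 1824 bases, and mt-Nd6, with 12427 counts over the 8 libraries, is 519 bases long.

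The nearly uncounted stretch coincides with a nuclear copy of mitochondrial DNA on chromosome 1. A search of the GENCODE M21 transcripts for matches of at least 40 bases at 90% identity or more found 18 nuclear genes that hold protein-gene or transfer RNA sequence of the mitochondrial genome. Of these, 7 matched at 99% identity or more, and all 7 are pseudogenes in 1 block, chr1:24611535-24616197 on the minus strand, in the order of the mitochondrial genes and in register with them to within 1 base. Gm28661 repeats 681 of the 684 bases of mt-Co2 at 100% identity, Gm10925 repeats 678 of the 681 bases of mt-Atp6 at 100%, Gm28437 repeats 783 of the 784 bases of mt-Co3 at 100%, Gm28438 repeats 345 of the 348 bases of mt-Nd3 at 99.71%, and Gm10222 repeats 294 of the 297 bases of mt-Nd4l at 100%. For mt-Atp8 the annotated copy covers only the 43 bases that it shares with mt-Atp6. The rest of the gene would fall, by the same offset, within chr1:24614609-24614812, where no annotated gene covers all of it, and the genome sequence there was not analysed here.

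The start of mt-Co2 shows how close the chromosome 1 copy is. The 60 bases of mt-Co2 at chrM:7013-7072 are set below against the same bases of Gm28661 (chr1:24615506-24615565) and of Gm13341, an older copy at chr2:22587903-22587962 that is 95.91% identical to mt-Co2 over its length. Capitals mark the bases at which gene and older copy differ, and all sequences are GENCODE M21 transcripts of GRCm38 in the sense direction.
mt-Co2: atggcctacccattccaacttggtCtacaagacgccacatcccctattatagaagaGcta
Gm28661: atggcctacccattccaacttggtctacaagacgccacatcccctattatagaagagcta
Gm13341: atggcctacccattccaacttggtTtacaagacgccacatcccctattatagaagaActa
A read from this window of mt-Co2 has the same letters as Gm28661 throughout, and differs from Gm13341 at 2 bases. The 8 libraries held 4 counts for mt-Co2, 0 for Gm28661 and 7 for Gm13341.

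The start of mt-Nd3 holds the only base at which that gene and its chromosome 1 copy differ. The gene's bases are chrM:9459-9518 and those of Gm28438 are chr1:24613060-24613119, with the differing base in capitals.
mt-Nd3: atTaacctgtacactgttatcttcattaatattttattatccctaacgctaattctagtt
Gm28438: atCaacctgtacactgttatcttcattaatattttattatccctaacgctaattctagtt
The next 342 bases are the same in both. The libraries held 7 counts for mt-Nd3, of which 3 were in HFD replicate 5, and 0 for Gm28438.

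More distant nuclear copies exist for some of the counted genes. mt-Co1 has a copy of its whole length on chromosome 2, Gm13340, at 97.61% identity with 37 mismatches, and the 2 share no identical run longer than 148 bases. mt-Nd6 has a copy of its whole length on chromosome 4, Gm11408, at 93.64% identity with 33 mismatches and no identical run over 39 bases. A window of each pair is shown, with differing bases in capitals: chrM:5787-5846 against chr2:22589129-22589188 for mt-Co1, with 4 differences, and chrM:13757-13816 against chr4:80003601-80003660 for mt-Nd6, with 11.
mt-Co1: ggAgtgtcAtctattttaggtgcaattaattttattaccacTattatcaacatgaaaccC
Gm13340: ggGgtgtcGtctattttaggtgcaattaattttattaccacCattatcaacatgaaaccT
mt-Nd6: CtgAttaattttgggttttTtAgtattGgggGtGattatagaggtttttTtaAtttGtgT
Gm11408: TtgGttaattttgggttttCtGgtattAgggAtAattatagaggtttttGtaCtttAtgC
Over the 8 libraries mt-Co1 had 675534 counts and Gm13340 had 43, while mt-Nd6 had 12427 and Gm11408 had 0. The copies on chromosome 2 and chromosome 4 thus stood at or near 0 where the mitochondrial genes were abundant.

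Across the 15 protein and ribosomal RNA genes, 7 of the 9 counted genes had no copy at 99% identity or more. The remaining 2 counted genes were covered in part. The first 876 of the 1378 bases of mt-Nd4 (63.6%) are repeated at 100% by Gm28439, and bases 1063 to 1545 of mt-Co1 (31.3% of its length) are repeated at 99.79% by Gm29216. The 7 pseudogenes of the chromosome 1 block held 17 counts in total over all 8 libraries. For the 6 nearly uncounted genes, counts were therefore near 0 in both places. How the submitters' counting treated reads with more than 1 alignment is not given in the sources used here, and its part in these zeros was not tested. The plot of counts against copy coverage sets the 6 genes apart by their counts. Annotated copies covered them nearly whole except for mt-Atp8, at 21.1%, which was less than for mt-Co1 and mt-Nd4.

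**Figure D1:**
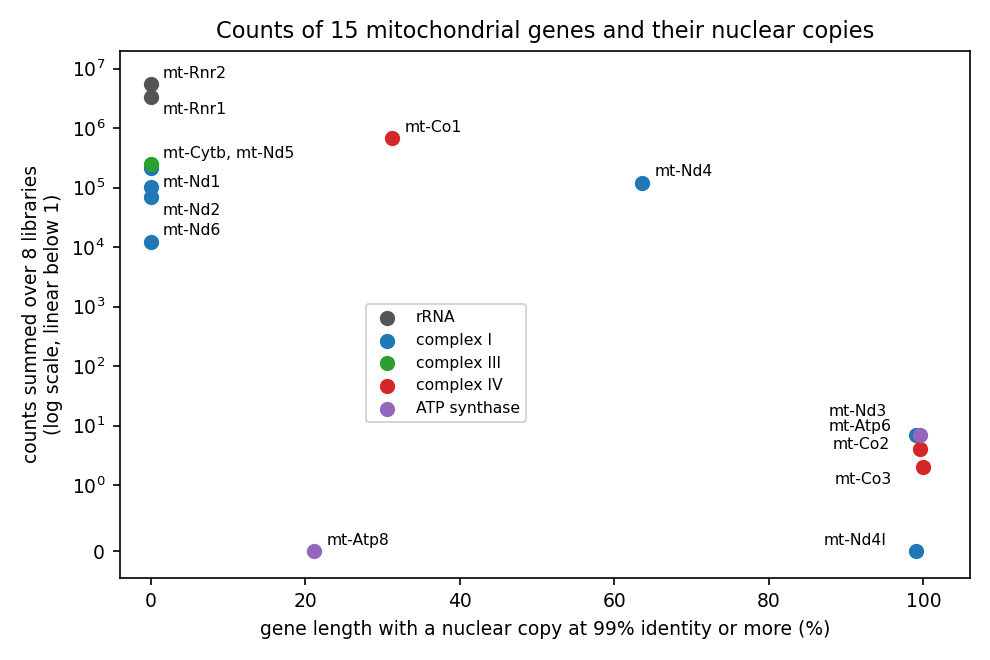
Counts summed over 8 libraries (log scale, linear below 1) of the 15 protein and ribosomal RNA genes, against the share of each gene's length that has a nuclear copy at 99% identity or more. The 5 genes at the right edge, covered nearly whole, and mt-Atp8 at 0 counts hold 20 counts between them, while the 9 others hold at least 12427 each.

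mt-Atp8 and mt-Atp6, subunits of the membrane part of ATP synthase, are read from overlapping frames of 1 transcript. The 43 shared bases, chrM:7927-7969, are printed with the start codon of mt-Atp6 in capitals.
mt-Atp8 end and mt-Atp6 start: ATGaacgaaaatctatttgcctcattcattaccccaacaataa
mt-Atp8 had 0 counts in each of the 8 libraries. mt-Atp6 had 1, 1, 2 and 1 counts in chow replicates 1 to 4 and 0, 2, 0 and 0 in HFD replicates 5 to 8. The complex IV genes mt-Co2 and mt-Co3, which with mt-Co1 form the catalytic core of cytochrome c oxidase, had at most 2 and 1 counts in any library. mt-Nd4l, a small membrane subunit of complex I, was at 0 in all 8. No fold change is given for these genes, since both diets were at or under the limit that a count of 0 allows.

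The 22 transfer RNA genes are 59 to 75 bases long and also gave next to nothing. There was 1 count in all, for mt-Tf in HFD replicate 6, and the other 21 genes were at 0 in every library. None of the 22 has a near-identical copy among the annotated transcripts. Sequence between annotated genes was not searched. The search therefore could not show whether mt-Tk, mt-Tg and mt-Tr, which lie between the nearly uncounted protein genes, are repeated in the chromosome 1 block.

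The mitochondrial ribosomal RNAs held the most counts of all genes in these libraries. mt-Rnr2, the 16S RNA of the large ribosomal subunit (chrM:1094-2675), ranked first of all genes in each of the 8 libraries, and mt-Rnr1, the 12S RNA of the small subunit (chrM:70-1024), ranked second in each. In chow, mt-Rnr2 was at 137370, 124410, 152880 and 134940 CPM, and in HFD at 117920, 150150, 116920 and 142410 CPM. In chow, mt-Rnr1 was at 73111, 77942, 99384 and 82499 CPM, and in HFD at 63711, 91432, 77244 and 78678 CPM. Chow replicate 3 was the highest library for both RNAs, and HFD replicate 6 came second. The diets overlapped throughout.

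Together, the mitochondrial genes made up 22.4% to 28.0% of each library. Their share of all counts was 23.9%, 23.8%, 27.1% and 25.2% in chow replicates 1 to 4 and 22.4%, 28.0%, 23.9% and 25.7% in HFD replicates 5 to 8. The means were 24.99% ± 1.55 and 24.99% ± 2.43 (SD, n = 4), a difference of 0.01 percentage points. Both the lowest and the highest library were fed HFD. Counting error was small beside this, as the 95% Wilson interval of a library's share was at most 0.0822 percentage points wide. Ribosomal RNA took 84.7% to 87.7% of the mitochondrial counts, with 6 of the 13 protein genes nearly uncounted.

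Without the ribosomal RNAs in the sum or in the total, the mitochondrial share was 4.59%, 4.17%, 4.65% and 4.48% in chow and 3.43%, 5.61%, 4.23% and 4.98% in HFD. The means were 4.47% ± 0.217 in chow and 4.56% ± 0.946 in HFD (SD, n = 4). The 4 chow libraries lay close together, inside the range of the HFD libraries. The difference of 0.09 percentage points was smaller than the SD of either diet. The plot of shares by library shows that most of the height of each bar was ribosomal RNA.

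**Figure D2:**
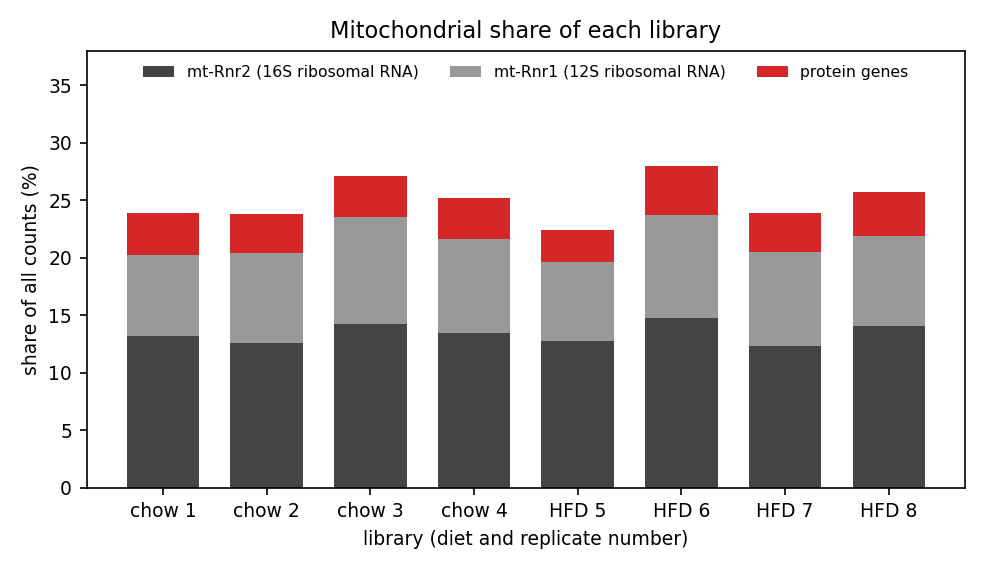
Share of all counts (%) taken by mt-Rnr2, mt-Rnr1 and the mitochondrial protein genes, stacked, in each of the 4 chow and 4 HFD libraries. Bar heights run from 22.4% in HFD replicate 5 to 28.0% in HFD replicate 6, and the chow libraries lie between them.

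Per kilobase of gene length, the protein genes differed in level by more than 10-fold. The mean over the 8 libraries was 10717 CPM per kilobase for mt-Co1, 5407 for mt-Cytb, 2881 for mt-Nd5, 2651 for mt-Nd1, 2165 for mt-Nd4, 1672 for mt-Nd2 and 590 for mt-Nd6. Both ribosomal RNAs stood above them at 85098 for mt-Rnr2 and 84293 for mt-Rnr1 and did not differ beyond the spread, as mt-Rnr2 was the higher one in 3 of 8 libraries. Most neighbours in this order kept their places in all 8 libraries. The exceptions were mt-Nd5 over mt-Nd1, which held in 6, and mt-Nd1 over mt-Nd4, which held in 7. If only the bases without a near-identical copy are taken as the countable length, mt-Co1 came to 15591 CPM per kilobase over 1062 bases. On that scale mt-Nd4 came to 5944 over 502 bases and moved from the fifth protein gene to the second, above mt-Cytb in 6 of 8 libraries. The place of mt-Nd4 therefore depended on which length was used.

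No mitochondrial gene passed the test between the diets. With the quasi-likelihood test of edgeR across 10129 genes, 0 of the 9 members had an adjusted p under 0.05, where 0.0% of all genes tested had one. Below an unadjusted p of 0.05 there were also 0 members, where 5.35% of all genes lay. The diets overlapped for every member, while over all genes 3.39% did not overlap, 1.68% with every HFD library above every chow library and 1.71% with every one below. The adjusted p was 0.987 for each of the 9. Other fits called 0 members as well, where DESeq2 called 0.765% of all genes, limma-voom 0.00987% and edgeR without a filter 0.25%. Of them, 2 were higher and 7 lower in HFD, and their median log2 fold change (HFD over chow) was -0.10. Over all genes tested, 48.6% were higher and the median was -0.02. The standard errors (SE) of the members, derived from the test statistic, were among the smallest. They ran from 0.08 to 0.23, against a median of 0.75 over all genes.

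Complex I, the entry point of electrons from NADH, has 5 counted members. mt-Nd1 (chrM:2751-3707) was at 2404, 2294, 2512 and 2617 CPM in chow and 1776, 3387, 2479 and 2826 CPM in HFD. The chow values lay within a narrow band that the HFD libraries passed on both sides, and the log2 fold change was 0.09 (SE 0.15). mt-Nd2 (chrM:3914-4951) was at 2346, 1620, 1924 and 1641 CPM in chow and 968, 1897, 1387 and 2101 CPM in HFD. Its log2 fold change of -0.25 (SE 0.19) had the lowest unadjusted p of the members (0.217, edgeR). Here chow replicate 1 was the highest library and HFD replicates 5 and 7 were the lowest.

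mt-Nd4 (chrM:10167-11544), which is part of the proton-pumping arm of complex I, was at 3492, 2867, 2970 and 2911 CPM in chow and 1804, 3822, 2561 and 3444 CPM in HFD. Its log2 fold change was -0.07 (SE 0.17). mt-Nd5 (chrM:11742-13565), the largest mitochondrially encoded subunit, was at 6012, 4985, 5689 and 5181 CPM in chow and 3259, 6538, 4327 and 6050 CPM in HFD. Its log2 fold change was -0.12 (SE 0.16). For both genes HFD replicate 5 was the lowest library and HFD replicate 6 the highest, with chow between them.

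mt-Nd6 (chrM:13552-14070) is the single protein gene on the light strand, and it was the least abundant of the 9. It was at 404, 295, 349 and 276 CPM in chow and 176, 305, 271 and 372 CPM in HFD. Its log2 fold change was -0.24 (SE 0.23). The last 14 bases of mt-Nd5 overlap mt-Nd6 on the opposite strand. The sources used here do not say whether the counting used strand, so reads of mt-Nd6 and reads of the heavy-strand transcript that runs across it cannot be told apart. The count of mt-Nd6 was 4.66% to 6.72% of that of mt-Nd5, the range of the diets overlapping.

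mt-Cytb (chrM:14145-15288) encodes cytochrome b, the mitochondrial subunit of complex III. It was at 6718, 5960, 6808 and 6296 CPM in chow and 4262, 7343, 5216 and 6881 CPM in HFD. The mean of the chow libraries was 6446 ± 393 CPM and that of the HFD libraries 5926 ± 1437 CPM (SD, n = 4), a log2 fold change of -0.12 (SE 0.14). HFD replicates 6 and 8 were above every chow library and HFD replicates 5 and 7 below every one.

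mt-Co1 (chrM:5328-6872) encodes the subunit of cytochrome c oxidase that holds its oxygen-reducing centre. It had the highest level of the 7 counted protein genes, the other 6 being nearly uncounted, and ranked 4 or 5 among all genes in every library. It was at 16733, 14765, 17830 and 16273 CPM in chow and 13235, 20363, 15596 and 17668 CPM in HFD. The log2 fold change of 0.03 (SE 0.11) was close to 0. HFD replicates 5 and 6 were again the lowest and the highest library.

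**Figure D3:**
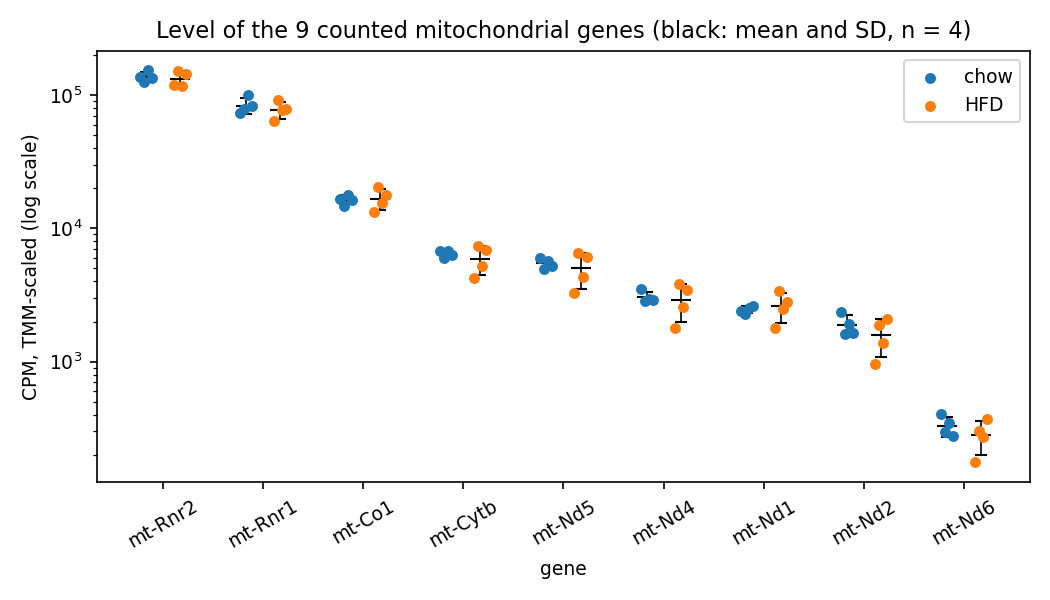
TMM-scaled CPM (log scale) of the 9 counted mitochondrial genes, with a point for each of 4 chow and 4 HFD libraries and bars for mean and SD. The diets overlap for every gene, and the HFD points of the protein genes spread more widely than the chow points.

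The spread between libraries was larger in HFD than in chow for most members. The SD of the 4 HFD libraries exceeded that of the 4 chow libraries for 8 of the 9 genes, the exception being mt-Rnr1 with a ratio of 0.99, and for all 7 counted protein genes. The ratio of SDs was 4.85 for mt-Nd1, 3.66 for mt-Cytb, 3.24 for mt-Nd5, 3.11 for mt-Nd4 and 2.39 for mt-Co1, and from 1.42 to 1.51 for mt-Nd2, mt-Nd6 and mt-Rnr2. Over all 10129 genes tested, the HFD SD was the larger one for 43.6%. The members share libraries and scaling factors and are no independent replicates, and the difference in spread was not tested.

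The HFD spread came from opposite ends. HFD replicate 5 was the lowest library for 8 of the 9 members, mt-Rnr2 being the exception with HFD replicate 7 the lowest. HFD replicate 6 was the highest for 5 of 9, and chow replicates 1 and 3 for 2 each. The level in HFD replicate 6 was 1.27 times that in HFD replicate 5 for mt-Rnr2 and 2.12 times for mt-Nd4, which were the ends of the range over the 9 genes. As a median over the members, the deviation from a gene's mean log2 level was -0.52 in HFD replicate 5, -0.19 in HFD replicate 7, 0.27 in HFD replicate 6 and 0.18 in HFD replicate 8. In chow it was 0.14, -0.05, 0.16 and 0.01. All 9 members lay on the same side of their means in chow replicates 2 and 3 and in HFD replicates 5, 6 and 7. They were split in chow replicate 1 (7 above, 2 below), chow replicate 4 (5 and 4) and HFD replicate 8 (8 and 1). By these medians, the HFD libraries lay on both sides of the chow libraries.

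**Figure D4:**
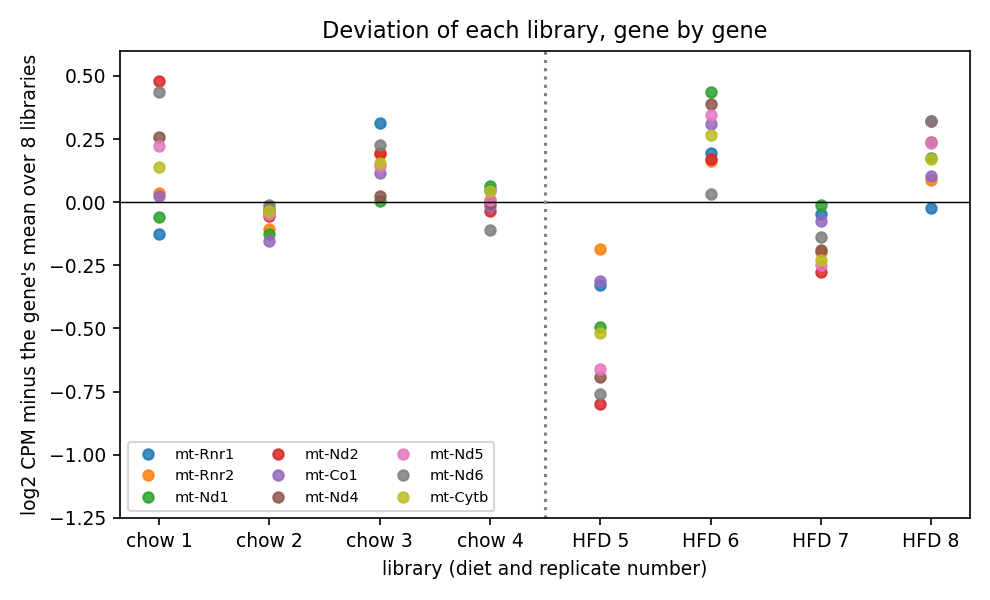
Log2 CPM of each of the 9 counted genes minus its mean over the 8 libraries, by library, with 1 colour per gene. All 9 genes lie below 0 in chow replicate 2 and HFD replicates 5 and 7, and above 0 in chow replicate 3 and HFD replicate 6. Chow replicates 2 and 4 stay near 0.

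Markers of other cells were set beside these deviations. The 12 stellate cell and fibroblast markers, none of which was at 0 in all libraries, summed to 24.3, 80.0, 132 and 88.0 CPM in chow replicates 1 to 4 and to 448, 300, 234 and 105 CPM in HFD replicates 5 to 8. The library with most of them, HFD replicate 5, was the lowest for mitochondrial genes, and the library with the next most, HFD replicate 6, was the highest. Of the 12 markers, 3 passed the low-count filter, 2 higher and 1 lower in HFD. Every HFD library except replicate 8 had a higher sum than all chow libraries. The sum thus largely followed diet and cannot be fully told apart from it. With that sum as a covariate, the median log2 fold change of the 9 members was 0.15 and 7 of 9 were higher in HFD, in place of -0.10 and 2. With the summed endocrine markers as a covariate it was -0.18 with 1 of 9 higher, and with the acinar markers -0.10 with 2 of 9 higher. The part of these cells in the mitochondrial levels was otherwise not tested. Summed macrophage markers were at 6288 to 8407 CPM in chow and 6397 to 7469 CPM in HFD. Without HFD replicate 6 the median was -0.24 with 0 of 9 higher, and without HFD replicate 5 it was 0.01 with 5 of 9 higher, so the direction of the members as a group rested on single libraries.

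Proportions among the members were also compared. Counts on protein genes came almost wholly from 7 of the 13, as the other 6 were nearly uncounted. The shares are therefore not the make-up of all mitochondrial messenger RNA. Parts of mt-Co1 and mt-Nd4 have near-identical copies, and whether reads were lost there was not tested. Of the counts on mitochondrial protein genes, mt-Co1 took 45.5% ± 1.30 in chow and 48.1% ± 3.05 in HFD (SD, n = 4), and mt-Nd5 took 15.2% ± 0.455 and 14.2% ± 1.20. The share of mt-Nd4 was 8.49% ± 0.590 and 8.16% ± 0.793, and that of mt-Nd1 was 6.83% ± 0.490 and 7.42% ± 0.411. mt-Nd2 took 5.20% ± 0.657 and 4.46% ± 0.642. In each of these the diets overlapped.

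mt-Cytb was the 1 of the 7 counted protein genes whose share did not overlap between the diets. In CPM its diets overlapped, where 3.39% of all genes tested did not overlap. No such background was computed for shares. It took 17.6%, 18.2%, 17.9% and 17.9% of protein-gene counts in chow and 16.7%, 16.8%, 16.4% and 17.5% in HFD. The means differed by -1.04 percentage points (HFD minus chow), more than the SD of 0.225 in chow and 0.463 in HFD. The lowest chow library and the highest HFD library were 17.6% and 17.5%, so the gap was narrow. The shares of 1 library sum to a whole, and the ratio of mt-Co1 to mt-Cytb, 2.54 ± 0.0697 in chow and 2.86 ± 0.238 in HFD, overlapped. This share was picked out after the values were seen and was not tested.

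Ratios between neighbouring genes varied little in some cases and more in others. The ratio of mt-Nd4 to mt-Nd5 counts ran only from 0.522 to 0.592 over the 8 libraries, and that of mt-Cytb to mt-Nd5 from 1.12 to 1.31. The ratio of mt-Rnr2 to mt-Rnr1, whose genes are parted by 1 transfer RNA gene, ran from 1.51 to 1.88. Ribosomal RNA outnumbered protein-gene counts, nearly all from the 7 counted genes, by 5.52 to 7.13 times, and the highest ratio was in HFD replicate 5. The ratio of mt-Nd2 to mt-Nd1 varied most, at 0.976, 0.706, 0.766 and 0.627 in chow and 0.545, 0.560, 0.560 and 0.743 in HFD. HFD replicate 8 lay inside the chow range and the 3 other HFD libraries below it.

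Nuclear genes that serve the mitochondrial genome were read from the same fit. Of 291 symbols in 14 lists, 289 were found and 232 were tested, with 115 higher and 117 lower in HFD. Their median log2 fold change was -0.01. None had an adjusted p under 0.05 (edgeR), where 0.0% of all genes did. At an unadjusted p under 0.05 there were 3 higher and 5 lower, against 2.61% and 2.74% of all genes tested. Of the 232, 3 had every HFD library above every chow library and 2 had every one below. Over all genes tested these shares were 1.68% and 1.71%, so the separations named below are not particular to these lists. Their SE had a median of 0.98, against 0.15 for the members. The plot of fold changes by list shows the members in a tight group near 0 and each nuclear list spread on both sides of it.

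**Figure D5:**
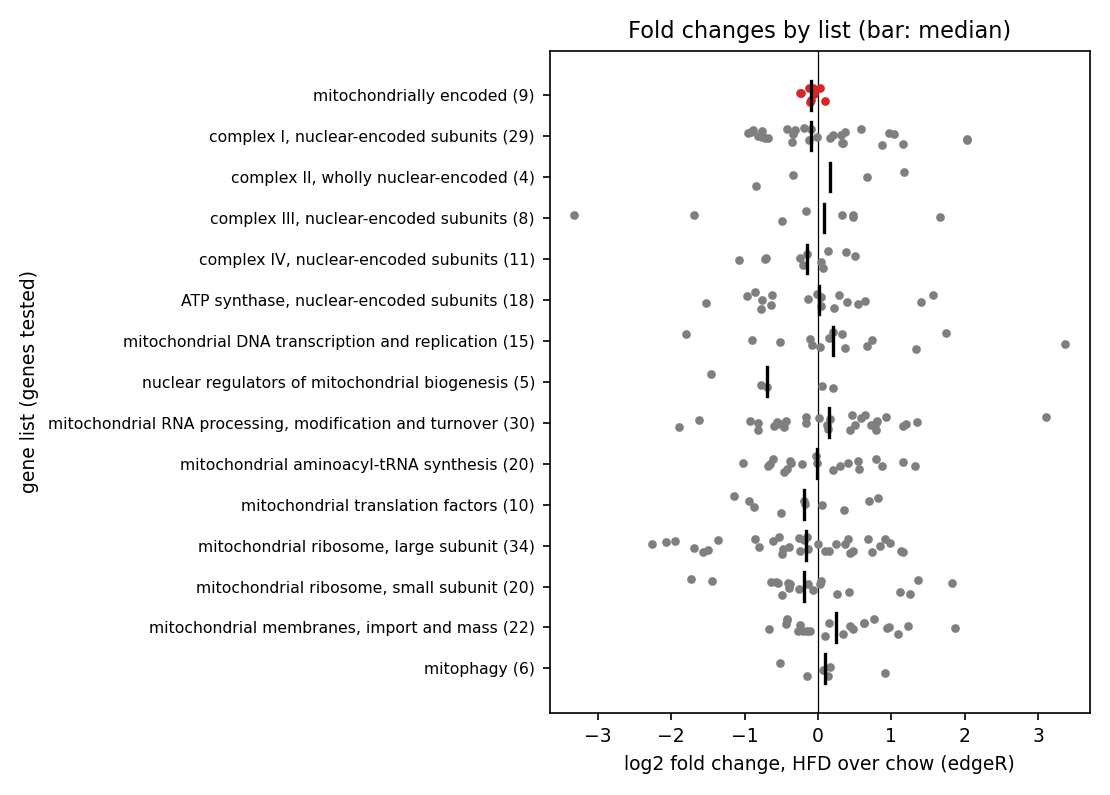
Log2 fold change (HFD over chow, edgeR) of every tested gene in the mitochondrially encoded set (red) and in 14 lists of nuclear genes (grey), with a black bar at each median and the number of genes tested in brackets. The 9 mitochondrial genes lie between -0.25 and 0.09, while the nuclear genes range from -3.32 to 3.37.

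Of 15 tested genes for transcription and replication of mitochondrial DNA, 10 were higher and 5 lower in HFD. Polg2, the accessory subunit of the mitochondrial DNA polymerase, was at 39.7, 40.7, 37.2 and 86.4 CPM in chow and 4.73, 30.1, 15.3 and 8.37 CPM in HFD. Every HFD library was below every chow library, but the log2 fold change of -1.80 (SE 0.63) had an adjusted p of 0.753 (edgeR). Tfb1m, which methylates the 12S ribosomal RNA, averaged 0.876 ± 1.21 CPM over the chow libraries and 9.22 ± 4.81 CPM over the HFD libraries (SD, n = 4), without overlap (log2 fold change 3.37, SE 1.48). Few reads lay behind it, 17 counts in the 4 chow libraries and 187 in the 4 HFD libraries. Its log2 fold change ran from 2.97 to 4.72 with 1 library left out, the highest without chow replicate 4, and was 1.81 with the stellate cell and fibroblast covariate. That of Polg2 ran from -2.43 (without HFD replicate 6) to -1.42 (without chow replicate 4).

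Of 30 tested genes for processing and turnover of mitochondrial RNA, 18 were higher and 12 lower. Supv3l1, the helicase that unwinds mitochondrial RNA for degradation, was at 2.23, 0.310, 2.47 and 2.34 CPM in chow and 21.7, 22.6, 11.7 and 7.57 CPM in HFD. The diets did not overlap, and HFD exceeded chow by 3.10 on the log2 scale (SE 1.10, edgeR adjusted p = 0.753). With DESeq2 the same gene had an adjusted p of 0.0266. Few reads lay behind it, 34 counts in chow and 335 in HFD. With the stellate cell and fibroblast covariate its log2 fold change was 2.53 (edgeR unadjusted p = 0.153). Pnpt1, the exonuclease that works with that helicase, averaged 36.9 ± 12.2 and 57.4 ± 9.03 CPM (SD, n = 4), a log2 fold change of 0.64 (SE 0.44), and the diets overlapped.

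The mitochondrial ribosome and its tRNA synthetases were also read. Large-subunit proteins numbered 14 higher and 20 lower of 34 tested (median log2 fold change -0.17), and small-subunit proteins 8 higher and 12 lower of 20 (median -0.19). Among 20 synthetases and related enzymes, Lars2, the mitochondrial leucyl-tRNA synthetase, was at 970, 755, 738 and 503 CPM in chow and 330, 477, 455 and 616 CPM in HFD. Its log2 fold change was -0.66 (SE 0.21), with an adjusted p of 0.753 (edgeR), and HFD replicate 8 lay inside the chow range. With the stellate cell and fibroblast covariate it was -0.15. Of 10 translation factors tested, 4 were higher and 6 lower, and Gfm2, which takes part in ribosome recycling, was at 154 ± 41.6 and 197 ± 35.5 CPM (SD, n = 4).

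Nuclear subunits of the respiratory complexes had medians near 0, as the mitochondrial subunits did. The median log2 fold change was -0.10 over 29 subunits of complex I, 0.09 over 8 of complex III, -0.15 over 11 of complex IV and 0.01 over 18 of ATP synthase. Complex II, which has no mitochondrially encoded subunit, had 2 of 4 genes higher and a median of 0.17. Uqcrq, a small subunit of complex III, was at 13.4, 8.67, 18.7 and 1.64 CPM in chow and 0.197, 0.517, 1.25 and 2.19 CPM in HFD (log2 fold change -3.32, SE 1.31, edgeR adjusted p = 0.807). Atp5c1, the central stalk subunit of ATP synthase, was at 121 ± 39.98 and 66.6 ± 17.5 CPM (SD, n = 4), and Atp5b, its catalytic subunit, at 216 ± 47.6 and 264 ± 12.7 CPM. The diets overlapped for all 3.

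The remaining lists concern the number, shape and removal of mitochondria. Of 22 tested genes of mitochondrial membranes, import and mass, 13 were higher and 9 lower in HFD (median log2 fold change 0.24). Mfn2, which fuses outer membranes, was at 9.57 ± 7.07 and 34.8 ± 27.0 CPM, and the ADP and ATP carrier Slc25a5 was at 35.1 ± 4.50 and 59.4 ± 29.1 CPM (SD, n = 4), the latter without overlap between the diets. Of 5 tested regulators of mitochondrial biogenesis, 2 were higher and 3 lower, and Nrf1 was at 45.2 ± 42.0 and 16.4 ± 9.85 CPM. The mitophagy receptor Bnip3l was at 128 ± 31.7 and 144 ± 15.1 CPM, among 6 tested genes of which 4 were higher and 2 lower.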

How the data were processed

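Macrophage RNA (500 pg) was amplified with the Ovation RNA-Seq System V2, per the labels' protocols. The submitters' processing notes name FastQC, Trim Galore, STAR and the GRCm38 build. The authors deposited unscaled expected counts per gene. Not given in the sources used here are the counter, its annotation, its use of strand and its treatment of reads with more than 1 alignment. Fractional values, 939 to 1115 per library and none in a mitochondrial gene, were rounded. Libraries from 2 pooled mice were the replicates. All 28 pairs of libraries differed by more than sampling noise (chi-square per degree of freedom at least 36.8).

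Genes were tested, two-sided, with edgeR 4.0.16 (R 4.3.3): filterByExpr, TMM scaling, a robust quasi-likelihood fit on diet alone, and Benjamini-Hochberg adjusted p under 0.05. CPM are TMM-scaled. GENCODE M21, which held 48058 of the 48440 identifiers, gave symbols, positions (1-based) and transcripts, and copies were searched with blastn 2.17.0. Alternatives comprised 5 other scalings, 2 other filters, 3 cell type covariates, each library left out, DESeq2 1.42.0, limma-voom (limma 3.58.1), a fit that was not robust and counts not rounded. All protein and ribosomal RNA genes were named, and up to 4 genes per nuclear list (all in lists of under 6 tested genes), those with the smallest p, a selection of which is printed. The members and lists were chosen with earlier results of these data known.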

Additional observations from a re-analysis of the deposited data

Results flagged for a closer look

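In 66 groups of 4 libraries tested for a library far from the others, 2 were found, and chance alone gives about 1 in 20. The CPM of mt-Nd4 in chow replicate 1 was 3492, with the 3 other chow libraries at 2867 to 2970. The ratio of mt-Nd2 to mt-Nd1 counts in HFD replicate 8 was 0.743, with the 3 other HFD libraries at 0.545 to 0.560.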

How the results depend on the processing

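The count of genes called over the whole table was 0, with 542 at an unadjusted p under 0.05. It was 45 with no filter, 93 with DESeq2, 1 with limma-voom and 0 to 11 with 1 library left out (11 without HFD replicate 8, 0 without any other). No mitochondrial gene was called under any of the 22 alternatives, with adjusted p from 0.539 to 1. The median log2 fold change of the 9 members, -0.10, was 0.15 with the stellate cell and fibroblast covariate and -0.18 with the endocrine covariate, and ran from -0.24 (without HFD replicate 6) to 0.01 (without HFD replicate 5) with 1 library left out. The cause was not tested. The mitochondrial share differed by 0.01 percentage points between the diets (-0.99 to 0.88 with 1 library left out), and without ribosomal RNAs by 0.09 (-0.26 to 0.47).

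Of 198 log2 fold changes of members under the alternatives, 184 kept their sign and 14 did not. Those were 0.01 for mt-Rnr2 with library totals, -0.02 for mt-Co1 with the endocrine covariate, 0.11 for mt-Rnr1 with limma-voom, and 0.21, 0.25, 0.15, 0.20 and 0.05 for mt-Nd2, mt-Nd4, mt-Nd5, mt-Nd6 and mt-Cytb with the stellate covariate. The other 6 came from leaving out 1 library, which gave -0.06 (without HFD replicate 6) to 0.24 for mt-Nd1, -0.08 to 0.13 for mt-Co1 (-0.02 without chow replicate 2 and -0.08 without HFD replicate 6), and, with HFD replicate 5 left out at the upper end, -0.24 to 0.10 for mt-Nd4, -0.27 to 0.05 for mt-Nd5 and -0.24 to 0.01 for mt-Cytb. Of 1244 such values for 57 nuclear genes, 15 changed sign: 0.34 for Ndufa4 with the acinar covariate, -0.20 for Gabpb1 with the endocrine covariate, -0.09 for Gabpb1 with limma-voom, and -0.50, -0.07, -0.09, -0.40 and -0.03 for Ndufab1, Uqcrb, Yars2, Cars2 and Mrps35 with the stellate covariate. The other 7 came from leaving out 1 library, with -1.07 to 0.01 for Ndufa4, -1.10 to 0.64 for Gabpb1 (-0.04, -0.03 and -1.10 without chow replicate 2, chow replicate 4 and HFD replicate 8), -0.01 to 0.17 for Gabpa, -1.32 to 0.37 for Ppargc1b and -2.91 to 0.74 for Mrps12. Supv3l1 passed with DESeq2 (adjusted p = 0.0266). No paired analysis was possible because the diets share no replicate number.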
